A study of Mus musculus with 28 samples.

Results

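The cadherin switch, the exchange of E-cadherin for N-cadherin at the cell surface, was followed through 7 genes: Cdh1 and Epcam of the epithelium, Cdh2 and Ncam1 of neural and mesenchymal adhesion, the repressors Zeb1 and Zeb2, and the intermediate filament gene Vim. They were taken by symbol from the 30386 genes of the series table, and all 7 passed the filter on low counts that left 11080 genes for testing. E-cadherin holds epithelial cells and naive embryonic stem cells together through catenins bound to its tail. ZEB1 and ZEB2 are zinc-finger and homeodomain repressors known to silence Cdh1 and other epithelial genes in epithelial-mesenchymal transition, and ZEB2 also acts in early neural development. In the neural plate, N-cadherin and NCAM take over from E-cadherin and EpCAM while the cells remain an epithelium.

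The cells were E14, a line of mouse embryonic stem cells from the blastocyst, grown on gelatin in serum-free N2B27 medium. The 48 h + 2iL and 96 h + 2iL groups had been withdrawn for 48 h or 96 h and then given 2iL again for 24 h. The 24 h, 48 h, 96 h and 120 h groups had been without 2iL for those times. The 2iL group was kept with CHIR99021, an inhibitor of GSK3, with PD0325901, an inhibitor of MEK, and with the cytokine LIF. There were 4 libraries in each of the 7 groups, and each of 4 numbered experiments gave 1 library to every group. The 120 h time stands in the titles and the series design, while the treatment protocol lists collection times only up to 96 h. All cells are 1 line, and the labels do not say whether the numbered experiments were separate cultures, so p-values measure the spread between these libraries.

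Libraries of 3′ ends of polyadenylated RNA held 1554830 to 2828694 counts on genes and 13021 to 14923 detected genes. Levels are CPM, counts scaled to the library total, after TMM scaling. Whether different genes give equal counts per molecule was not tested. Levels of different genes are set together only in sums over markers and in the ratio of Cdh2 to Cdh1. The summed level of 6 naive markers (Tfcp2l1, Esrrb, Nanog, Klf4, Zfp42 and Tbx3) was 62.8 to 387 CPM in 96 h + 2iL, 47.7 to 62.3 CPM at 120 h and 1599 to 1861 CPM in 2iL. The summed level of 6 neural progenitor markers (Sox1, Pax6, Nes, Zic1, Six3 and Lhx5) was 225 to 382 CPM at 120 h, against 13.2 to 23.2 CPM in 2iL. Experiment 3 stood apart from 96 h onward. Its neural progenitor sum at 96 h was 277 CPM, against 98.2 to 139 CPM in the other experiments, and its naive sum in 96 h + 2iL was the lowest, at 62.8 CPM. These are bulk libraries, so fewer cells of a type and less RNA per cell cannot be told apart.

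A gene is said to have risen or fallen where edgeR's adjusted p over all 11080 genes was under 0.05. At 24 h against 2iL, 1 of the 7 genes rose, where 7.68% of all tested genes did. At 48 h against 2iL 1 of 7 changed in either direction, with 27.8% of all genes. Counted the same way, 4 of 7 changed at 96 h against 2iL, with 41.1% of all genes, and at 120 h against 2iL 5 of 7 changed, with 47.3% of all genes. Cdh2 and Zeb2 were low in 2iL and passed the filter through other groups, so these shares are not read. With so few genes, they are also not far from the background, and the values of each gene follow.

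**Figure D1:**
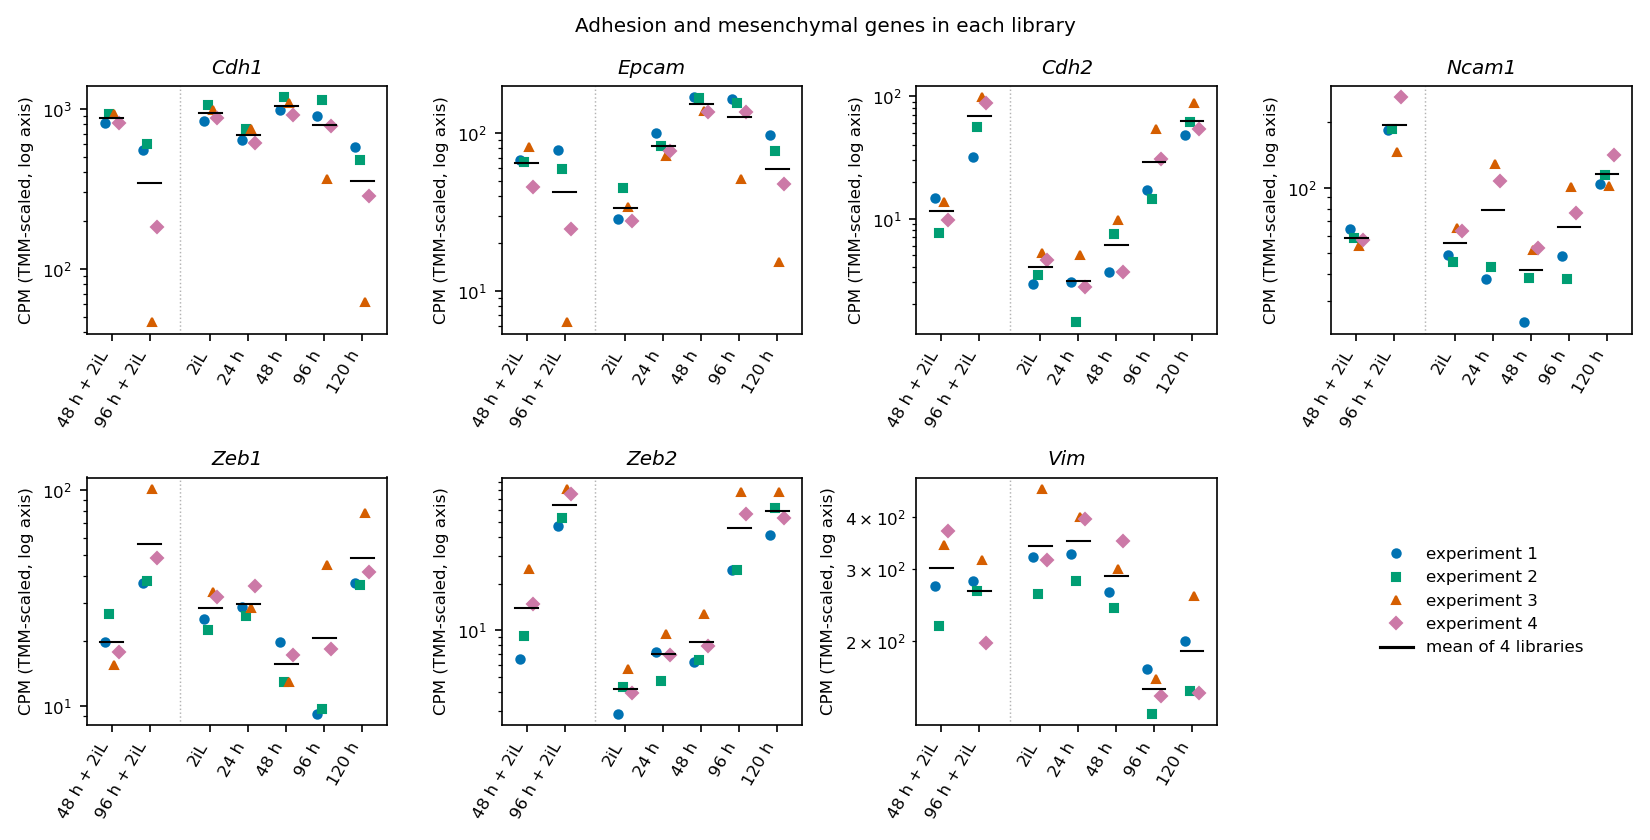
Level of each gene (CPM after TMM scaling, log axis) in every library, with a colour and marker per experiment and a bar at the mean of 4 libraries; the re-treated groups stand left of the dotted line and the withdrawal course right of it. Cdh2 and Zeb2 are high from 96 h on, Epcam is highest at 48 h with a mean of 153 CPM, and the Cdh1 values of experiment 3 drop to 61.7 CPM at 120 h and 46.2 CPM in 96 h + 2iL.

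Cdh1 (ENSMUSG00000000303, chromosome 8, 106603351 to 106670246 on GRCm38), which encodes E-cadherin, fell by 120 h. In experiments 1 to 4 it stood at 843, 1060.4, 989 and 872 CPM in 2iL, 638, 746, 747 and 613 CPM at 24 h, 985, 1182, 1084 and 911 CPM at 48 h, 904, 1134, 366 and 776 CPM at 96 h, and 581, 481, 61.7 and 284 CPM at 120 h. The 120 h libraries all lay below the 2iL libraries, with a range among themselves far wider than that of 2iL. The change at 120 h against 2iL was -1.42 ± 0.45 on the log2 scale (SE; adjusted p = 0.00926), or 2.67-fold lower. Without experiment 3 it was -1.05 with an adjusted p of 0.000848. Within experiments the difference was -0.54, -1.14, -3.99 and -1.62.

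At 24 h Cdh1 was below 2iL in all 4 experiments, by 0.40 to 0.51 log2 units, and the 24 h libraries did not overlap the 2iL libraries. The difference did not pass the test in the fit over all groups (log2 -0.46 ± 0.44, adjusted p = 0.553). In a fit of the 24 h and 2iL libraries alone, which leaves out the widely spread later libraries, the adjusted p was 0.0117. At 48 h the values overlapped those of 2iL again.

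Epcam (ENSMUSG00000045394, chromosome 17, 87635979 to 87651129), which encodes an epithelial adhesion glycoprotein, rose early in withdrawal. It stood at 28.5, 44.6, 34.2 and 27.8 CPM in 2iL, 99.7, 83.4, 71.2 and 77.4 CPM at 24 h, 169, 168, 139 and 137 CPM at 48 h, 165, 154, 51.0 and 135 CPM at 96 h, and 97.0, 77.5, 15.3 and 47.3 CPM at 120 h. Every 24 h and 48 h library lay above every 2iL library, and at 96 h experiment 3 was low while the other experiments were near their 48 h level. Epcam rose 2.44-fold at 24 h against 2iL (log2 1.29 ± 0.42, adjusted p = 0.0345), 4.51-fold at 48 h (2.17 ± 0.42, adjusted p = 0.000151) and 3.72-fold at 96 h (1.89 ± 0.42, adjusted p = 0.000404). At 120 h it was 0.81 ± 0.42 above 2iL with an adjusted p of 0.117, and 1.12 with an adjusted p of 0.0199 without the 120 h library from experiment 3. The 24 h call is close to the threshold: leaving out the 2iL library from experiment 1, 3 or 4, or the 24 h library from experiment 1, 2 or 4, gave log2 changes of 1.19 to 1.31 and adjusted p of 0.052 to 0.0874. DESeq2 did not call it (1.30, adjusted p = 0.0574).

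The stretch before the start of Epcam is shown because it holds the sequence that ZEB proteins are known to bind, the E-box CACCTG, read CAGGTG on the other strand. The 250 bases upstream of the RefSeq start (GRCm38.p6, chr17:87635729-87635978, plus strand) follow 5′ to 3′, with the matches in capitals.
Epcam: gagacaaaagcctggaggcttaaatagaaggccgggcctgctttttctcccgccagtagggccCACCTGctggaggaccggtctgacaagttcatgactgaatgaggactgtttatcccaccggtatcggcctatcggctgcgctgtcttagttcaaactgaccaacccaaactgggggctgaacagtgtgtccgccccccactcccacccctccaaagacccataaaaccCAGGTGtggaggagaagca
One match begins 187 bases and the other 19 bases before the start. Of 32851 such windows in the RefSeq table, 17.2% held at least 1 match on either strand. The table gave windows for 3 of the 7 genes, and the windows of Vim (1) and Zeb2 (4) held no match. Of the genes with a window in the 8 lists described below, a match was held by 5 of 8 epithelial regulators (Cldn7, Elf3, Grhl3, Rab25 and Spint2), 2 of 11 junction partners, 1 of 7 other transcription factors, 2 of 11 neural adhesion genes and 2 of 9 intermediate filament genes. It was held by 0 of 10 other cadherins, 0 of 11 mesenchymal effectors and 0 of 7 co-repressor and TGF-beta genes, against 19.4% of 27025 genes in the table. No difference between the lists was tested. A match is a stretch of letters and no record of binding. CTTTGAT, a TCF/LEF sequence searched on both strands, and TTCCNNGAA, a STAT sequence, were in none of the windows of Epcam, Vim and Zeb2, and stood in 3.21% and 2.55% of all windows.

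Cdh2 (ENSMUSG00000024304, chromosome 18, 16588877 to 16809246), which encodes N-cadherin, rose between 48 h and 96 h. It stood at 2.90, 3.43, 5.26 and 4.54 CPM in 2iL, 3.04, 1.41, 5.04 and 2.76 CPM at 24 h, 3.63, 7.41, 9.77 and 3.68 CPM at 48 h, 17, 14.6, 54.1 and 30.8 CPM at 96 h, and 48.1, 61.6, 88.3 and 53.6 CPM at 120 h. The 96 h and 120 h libraries all lay above every library of the earlier times. Cdh2 was at 3 to 202 counts per library, so the early values carry a large counting error. It was low up to 48 h and passed the filter through other groups, so its calls against those times are not read as tests. The rise was 2.82 ± 0.42 on the log2 scale at 96 h against 2iL (adjusted p = 2e-06), 2.24 ± 0.41 at 96 h against 48 h (adjusted p = 0.000157) and 3.93 ± 0.41 at 120 h against 2iL (adjusted p = 2.16e-09).

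Ncam1 (ENSMUSG00000039542, chromosome 9, 49502136 to 49798925), the neural cell adhesion molecule, rose by 120 h. It stood at 48.8, 45.5, 65.0 and 63.0 CPM in 2iL, 37.7, 42.9, 129 and 107 CPM at 24 h, 23.8, 38.0, 51.3 and 52.7 CPM at 48 h, 48.2, 38.0, 101 and 76.6 CPM at 96 h, and 103, 114, 102 and 141 CPM at 120 h. At 24 h experiments 3 and 4 were high and experiments 1 and 2 were not, and at 120 h all 4 lay above every 2iL library. The change at 120 h against 2iL was 1.05 ± 0.29 (adjusted p = 0.00311). At 48 h Ncam1 was below 24 h in all 4 experiments (log2 -0.93 ± 0.31, adjusted p = 0.0637). That difference passed the test with the experiment number as a block (-0.87, adjusted p = 0.0222) and without the 24 h library from experiment 1 (-1.16, adjusted p = 0.0188) or of experiment 2 (-1.14, adjusted p = 0.0222).

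Zeb2 (ENSMUSG00000026872, chromosome 2, 44983632 to 45117395) rose between 48 h and 96 h, as Cdh2 did. It stood at 2.90, 4.29, 5.64 and 3.97 CPM in 2iL, 7.29, 4.71, 9.45 and 6.91 CPM at 24 h, 6.22, 6.42, 12.8 and 7.97 CPM at 48 h, 24.3, 24.7, 78.1 and 56.4 CPM at 96 h, and 41.4, 61.1, 77.9 and 53.1 CPM at 120 h. In experiments 3 and 4 the 96 h value was already at the 120 h level, and in experiments 1 and 2 it was below it. Zeb2 was low in 2iL and passed the filter through other groups, so its calls against 2iL are not read as tests. The change against 2iL was 3.41 ± 0.40 at 96 h (adjusted p = 2.55e-08) and 3.75 ± 0.40 at 120 h (adjusted p = 2.6e-09). At 48 h it was 0.94 ± 0.47 (adjusted p = 0.146) and higher in 4 of 4 experiments, and passed the test with the experiment as a block (0.97, adjusted p = 0.0182). Zeb2os, which is annotated on the strand opposite Zeb2, was at 0 counts in 2iL and at 3.67, 2.42, 13.9 and 5.27 CPM at 96 h. Strand use in the counting is not given in the sources used here, so reads of the 2 genes may not be fully separated.

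Zeb1 (ENSMUSG00000024238, chromosome 18, 5591860 to 5775467) was lowest in the middle of the course. It stood at 25.1, 22.3, 33.8 and 31.8 CPM in 2iL, 28.6, 25.9, 28.4 and 35.9 CPM at 24 h, 19.7, 12.8, 12.8 and 17.2 CPM at 48 h, 9.17, 9.70, 44.9 and 18.2 CPM at 96 h, and 36.9, 36.3, 78.4 and 41.5 CPM at 120 h. The 48 h libraries all lay below the 2iL libraries, and at 96 h experiment 3 alone was above them. At 48 h the change against 2iL was -0.85 ± 0.38 with an adjusted p of 0.0968. It passed the test in a fit of the 48 h and 2iL libraries alone (-0.87, adjusted p = 0.00871) and without the filter (-0.88, adjusted p = 0.00648). Leaving out experiment 3 in every group gave -0.67 with an adjusted p of 0.072. At 96 h it was -0.46 ± 0.36 (adjusted p = 0.326), and -1.18 (adjusted p = 0.00593) without the 96 h library from experiment 3. At 120 h it was 0.77 ± 0.35 (adjusted p = 0.0665), and passed the test with the experiment as a block (0.73, adjusted p = 0.0315) or without the 120 h library from experiment 1 (0.90, adjusted p = 0.0464).

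Vim (ENSMUSG00000026728, chromosome 2, 13573927 to 13582826) encodes vimentin, the intermediate filament protein used as a mark of mesenchymal cells, and it fell. It stood at 320, 261, 469 and 316 CPM in 2iL, 326, 280, 400 and 395 CPM at 24 h, 264, 240, 299 and 350 CPM at 48 h, 171, 133, 161 and 147 CPM at 96 h, and 200, 151, 258 and 150 CPM at 120 h. The 96 h libraries all lay below every library of 2iL, 24 h and 48 h, and at 120 h each lay below every 2iL library. The change was -1.16 ± 0.19 at 96 h against 2iL (adjusted p = 6.12e-06), -0.91 ± 0.19 at 96 h against 48 h (adjusted p = 0.000571) and -0.85 ± 0.18 at 120 h against 2iL (adjusted p = 0.000288). The direction of Vim was thus opposite to that of Cdh2 and Zeb2 at 96 h and at 120 h. 7 markers of fibroblasts, the usual feeder cells, were measured beside it, 6 of them above the filter. Their summed level was 135 to 450 CPM at 120 h and 190 to 377 CPM in 2iL, and their part in the level of Vim was not tested. In edgeR's test 0 of the 6 changed at 120 h against 2iL, where 47.3% of all genes did, 1 had an unadjusted p under 0.05, and DESeq2 called 0.

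Between neighbouring times, 0 of 7 genes passed edgeR's test at 48 h against 24 h, where 6.57% of all genes did, 3 had an unadjusted p under 0.05 and DESeq2 called 1. In a fit of those groups alone Cdh1 (0.58, adjusted p = 0.0022), Epcam (0.87, adjusted p = 0.00045) and Zeb1 (-0.93, adjusted p = 0.0266) passed. In that fit 323 of all 11080 genes rose and 374 fell. At 96 h against 48 h, 3 of 7 changed, with 21.5% of all genes: Cdh2 and Zeb2 (log2 2.47 ± 0.38, adjusted p = 1.48e-05) rose and Vim fell. Cdh2 was low at 48 h and passed the filter through other groups, so this share is not read. With the experiment as a block Ncam1 also passed edgeR's test at 96 h against 48 h (0.65, adjusted p = 0.0495), as it did without the 96 h library from experiment 2 (0.89, adjusted p = 0.0372). At 120 h against 96 h edgeR called 0 of 7, with 1.14% of all genes, while 5 had an unadjusted p under 0.05 and DESeq2 called 1.

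The step from 96 h to 120 h turned on how experiments were treated. With the experiment as a block 5 genes passed: Cdh1 (-1.24, adjusted p = 0.0458), Epcam (-1.14, adjusted p = 0.0289), Cdh2 (1.21, adjusted p = 0.00218), Zeb1 (1.30, adjusted p = 0.00704) and Ncam1 (0.86, adjusted p = 0.0226). Without experiment 3, chosen for omission after its values were seen, the same 5 genes passed without a block, with adjusted p from 0.000233 for Zeb1 to 0.0113 for Epcam and Ncam1. All 5 had the same sign in 4 of 4 experiments, although Ncam1 in experiment 3 differed by only 0.01. Leaving out the 96 h library from experiment 3 alone gave calls for Cdh2 (1.59, adjusted p = 0.00271), Epcam (-1.35, adjusted p = 0.0278), Zeb1 (1.95, adjusted p = 0.000436) and Ncam1 (1.08, adjusted p = 0.0216). Leaving out the 120 h library from experiment 1 gave calls for Cdh2 (1.23, adjusted p = 0.0433) and Zeb1 (1.36, adjusted p = 0.0398).

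**Figure D2:**
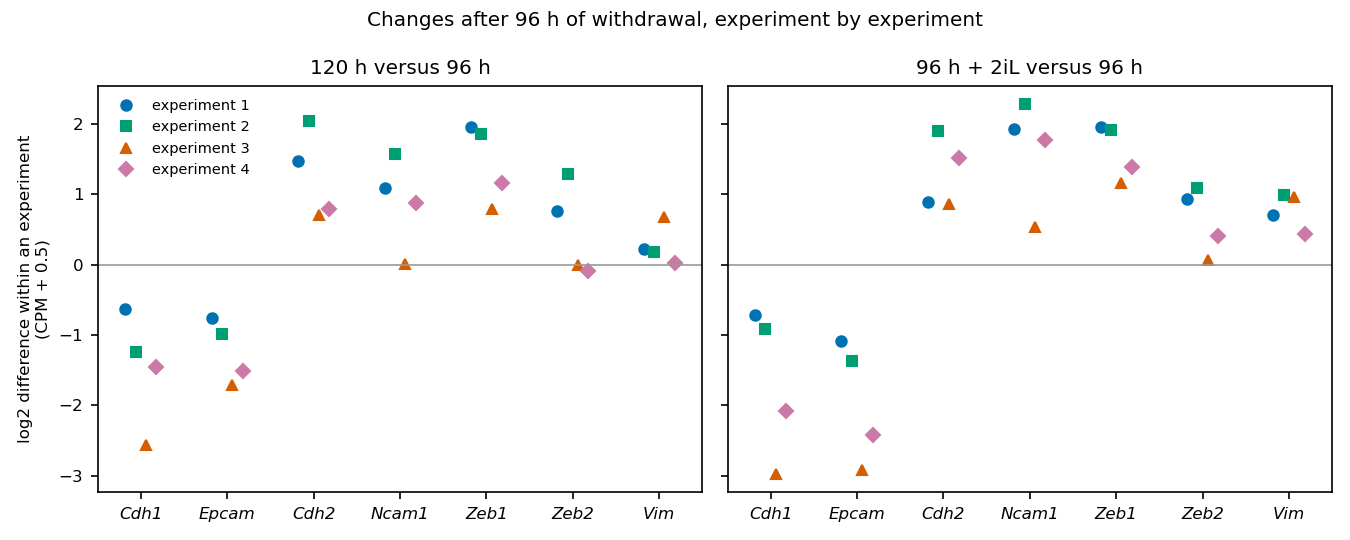
Difference in log2 (CPM + 0.5) between libraries of the same experiment, 120 h against 96 h on the left and 96 h + 2iL against 96 h on the right, 1 point per gene and experiment. Cdh1 and Epcam lie below 0 and Cdh2, Ncam1 and Zeb1 above 0 in all 4 experiments of both panels, with the lowest Cdh1 and Epcam values in experiment 3.

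The ratio of Cdh2 to Cdh1 in the same library was higher from 96 h on than at the earlier times, with Cdh2 still below Cdh1 in every 96 h library. The log2 ratio of Cdh2 to Cdh1 CPM, each with 0.5 CPM added, averaged -7.72 ± 0.34 in 2iL, -7.68 ± 0.65 at 24 h, -7.40 ± 0.54 at 48 h, -4.83 ± 1.54 at 96 h and -2.10 ± 1.81 at 120 h (SD, n = 4 each). At 120 h it was -3.58, -2.96, 0.51 and -2.39 in experiments 1 to 4. Experiment 3 was the only one whose ratio passed 0, and it was the highest at 96 h as well. The ratio is a description of counts, and whether both genes give equal counts per molecule was not tested, so 0 marks no equal number of molecules.

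**Figure D3:**
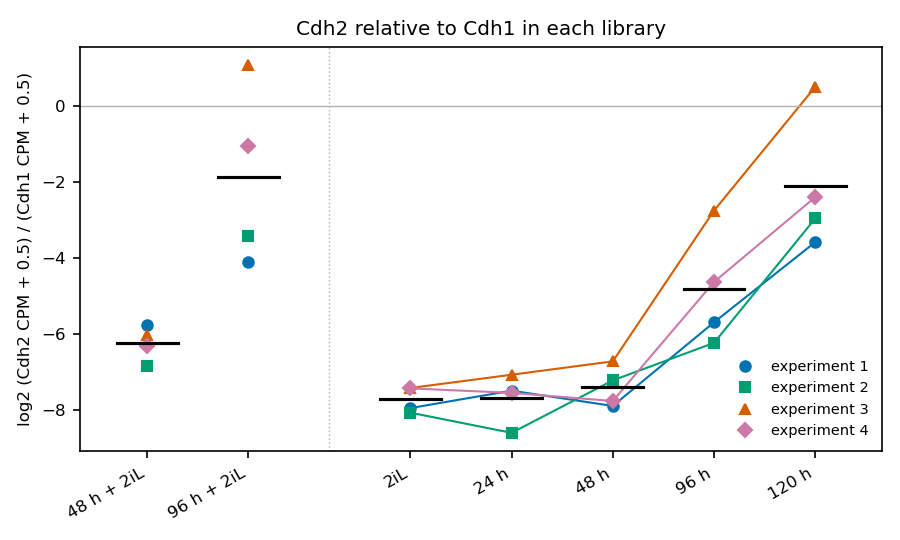
Log2 ratio of Cdh2 to Cdh1 (CPM + 0.5) in every library, the re-treated groups left of the dotted line and the withdrawal course, joined by experiment, right of it; bars are means of 4 libraries. The ratio stays near -7.5 up to 48 h, reaches a mean of -2.10 at 120 h, and lies between -4.10 and 1.08 in 96 h + 2iL.

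In 48 h + 2iL against 48 h, Epcam changed and none of the other 6 genes passed edgeR's threshold, where 14.9% of all genes changed. This comparison also holds 24 h of further culture, with no time-matched group without 2iL analysed here. Epcam was at 67.7, 65.6, 81.9 and 45.6 CPM in 48 h + 2iL, all below the 48 h libraries and above the 2iL libraries. The change against 48 h was -1.23 ± 0.40 (adjusted p = 0.0319), or 2.35-fold lower. DESeq2 gave an adjusted p of 0.0744. Leaving out the 48 h library from experiment 1, 2 or 3, or the 48 h + 2iL library from experiment 1, 2 or 4, gave changes of -1.08 to -1.26 and adjusted p of 0.0501 to 0.102.

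Cdh2 and Zeb2 were above their 2iL levels after this return. Cdh2 was at 14.7, 7.57, 13.7 and 9.78 CPM in 48 h + 2iL, every library above every 2iL library, and Zeb2 was at 6.57, 9.25, 24.9 and 14.9 CPM, likewise above 2iL. Against 48 h the changes were 0.89 ± 0.44 for Cdh2 (adjusted p = 0.193) and 0.76 ± 0.40 for Zeb2 (adjusted p = 0.228), each higher in 4 of 4 experiments and neither past the threshold. Against 2iL, Cdh2 rose by 1.47 ± 0.46 (adjusted p = 0.0315) and Zeb2 by 1.70 ± 0.43 (adjusted p = 0.0078), which made 2 of 7 genes, where 11.6% of all genes changed. Both genes passed the filter through groups other than 2iL, so this share is not read. The Cdh2 call was lost without the 2iL library from experiment 1, 2 or 4 or the 48 h + 2iL library from experiment 1 or 3 (log2 1.34 to 1.52, adjusted p = 0.0566 to 0.0966). The Zeb2 call was lost without the 48 h + 2iL library from experiment 3 (1.26, adjusted p = 0.0861). The comparison with 2iL sets cells that had lived through withdrawal against cells that had not.

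Cdh1 in 48 h + 2iL, at 820, 928, 932 and 818 CPM, overlapped the libraries of 2iL (log2 -0.11 ± 0.44, adjusted p = 0.916). Vim, at 272, 217, 343 and 370 CPM, and Ncam1, at 64.2, 58.5, 53.6 and 57.3 CPM, also overlapped 2iL. Zeb1, at 19.7, 26.5, 15.4 and 17.7 CPM, was -0.51 ± 0.36 from 2iL (adjusted p = 0.424).

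In 96 h + 2iL against 96 h, 5 of the 7 genes changed, where 9.24% of all genes did. Epcam fell, and Cdh2, Zeb1, Ncam1 and Vim rose. A further 24 h in culture separates these groups too, and the 120 h group, still without 2iL, is the time-matched one. In a fit of the 96 h + 2iL and 96 h libraries alone the calls of Epcam (-1.58, adjusted p = 0.085), Cdh2 (1.23, adjusted p = 0.0911) and Zeb1 (1.45, adjusted p = 0.0849) were lost.

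Epcam was at 77.8, 59.4, 6.33 and 24.8 CPM in 96 h + 2iL, and fell by 1.57 ± 0.41 against 96 h (adjusted p = 0.0119). The call was also lost without the 96 h + 2iL library from experiment 4 (-1.39, adjusted p = 0.0517). Epcam then overlapped the 2iL libraries (0.33 ± 0.43, adjusted p = 0.579), and was below 120 h in 4 of 4 experiments with no call (-0.48 ± 0.42, adjusted p = 0.701). Cdh1 was at 553, 603, 46.2 and 182 CPM, lower than at 96 h in 4 of 4 experiments. Its change of -1.19 ± 0.45 had an adjusted p of 0.0901, and passed the test with the experiment as a block (-1.31, adjusted p = 0.0175) and without experiment 3 (-1.06, adjusted p = 0.00384). It also passed without the 96 h + 2iL library from experiment 1 (-1.5, adjusted p = 0.0466) or 2 (-1.60, adjusted p = 0.0351), or the 96 h library from experiment 3 (-1.43, adjusted p = 0.031). Against 120 h Cdh1 differed by -0.02 ± 0.44 (adjusted p = 0.995). Without 2iL, at 120 h against 96 h, it differed by -1.17 ± 0.44 (adjusted p = 0.167). In experiment 3 both epithelial genes were near the bottom of their range, beside the highest neural progenitor sum of the group (383 CPM, against 145 to 257 CPM in the other experiments) and the lowest naive sum. The part of either in the result was not tested. Of that neural sum, Sox1, Nes and Zic1 gave 207, 102 and 59.4 CPM. Six3 was at 0 to 1.46 CPM in all of 96 h + 2iL, against 14.7 to 41.0 CPM at 96 h. At 120 h, without 2iL, Six3 was at 19.4, 28.3, 2.70 and 5.36 CPM in experiments 1 to 4.

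Cdh2 was at 31.8, 55.7, 98.3 and 88.8 CPM in 96 h + 2iL and rose by 1.23 ± 0.33 against 96 h (adjusted p = 0.0139). The call was also lost without the 96 h library from experiment 1 or 2 or the 96 h + 2iL library from experiment 3 or 4 (log2 1.00 to 1.10, adjusted p = 0.0585 to 0.0749). Against the time-matched 120 h group Cdh2 differed by 0.12 ± 0.32 (adjusted p = 0.929). Without 2iL, at 120 h against 96 h, it differed by 1.11 ± 0.33 (adjusted p = 0.0733). Ncam1 was at 185, 186, 146 and 261 CPM, above every library of every other group, and rose by 1.56 ± 0.28 against 96 h (adjusted p = 0.00041). Ncam1 was also above the 120 h libraries in 4 of 4 experiments (0.75 ± 0.27, adjusted p = 0.178), a difference that passed the test with the experiment as a block (0.76, adjusted p = 0.0402).

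Zeb1 was at 37.0, 38.0, 101 and 48.4 CPM in 96 h + 2iL and rose by 1.45 ± 0.35 against 96 h (adjusted p = 0.00687). Without the 96 h + 2iL library from experiment 3 the change was 1.00 with an adjusted p of 0.071, and without the 96 h library from that experiment it was 2.17 (adjusted p = 3.16e-05). Against 120 h Zeb1 differed by 0.22 ± 0.33 (adjusted p = 0.863). Without 2iL, at 120 h against 96 h, it differed by 1.23 ± 0.35 (adjusted p = 0.0682). Zeb2 was at 47.0, 52.8, 81.8 and 75.1 CPM, which overlapped 96 h (0.48 ± 0.31, adjusted p = 0.379). It was higher in 4 of 4 experiments and passed the test with the experiment as a block (0.58, adjusted p = 0.0467). Against 120 h Zeb2 differed by 0.13 ± 0.31 (adjusted p = 0.914).

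Vim, which had fallen by 96 h, rose in 96 h + 2iL. It was at 279, 265, 315 and 198 CPM there, above every 96 h library, and the change was 0.79 ± 0.19 against 96 h (adjusted p = 0.00534). It overlapped the 2iL libraries (-0.37 ± 0.18, adjusted p = 0.107), and was below 2iL with the experiment as a block (-0.34, adjusted p = 0.0433) or without the 2iL library from experiment 2 (-0.49, adjusted p = 0.0451). Against 120 h, Vim was higher in 4 of 4 experiments (0.48 ± 0.19, adjusted p = 0.204), and passed with the block (0.51, adjusted p = 0.0304).

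In all, 96 h + 2iL against 120 h gave 0 of 7 calls in edgeR, where 2.63% of all genes changed, with 2 unadjusted p under 0.05 and 0 calls by DESeq2. Against 2iL, 5 of 7 genes differed in 96 h + 2iL, with 41.0% of all genes. Cdh2 and Zeb2 passed the filter through groups other than 2iL, so this share is not read. Cdh2 (4.05 ± 0.41, adjusted p = 2.4e-09), Zeb2 (3.89 ± 0.40, adjusted p = 2.53e-09), Ncam1 (1.8 ± 0.29, adjusted p = 6.3e-06) and Zeb1 (0.99 ± 0.35, adjusted p = 0.0216) were higher and Cdh1 (-1.44 ± 0.45, adjusted p = 0.0099) was lower. The Zeb1 call was lost without the 96 h + 2iL library from experiment 3 (0.53, adjusted p = 0.232) and without the 2iL library from experiment 1 (0.93, adjusted p = 0.0556) or 2 (0.88, adjusted p = 0.0696). Leaving out experiment 3 in every group gave 0.63 with an adjusted p of 0.0497.

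The 2 re-treated groups differed from each other in 5 of 7 genes, where 24.1% of all genes differed. In 96 h + 2iL against 48 h + 2iL, Cdh2 (2.58 ± 0.36, adjusted p = 3.46e-06), Zeb2 (2.18 ± 0.34, adjusted p = 1.51e-05), Ncam1 (1.73 ± 0.29, adjusted p = 3.47e-05) and Zeb1 (1.5 ± 0.36, adjusted p = 0.00209) were higher and Cdh1 (-1.33 ± 0.45, adjusted p = 0.0266) was lower. The Zeb1 difference was 0.93 without experiment 3 (adjusted p = 0.00866). The Cdh1 call was lost without the 96 h + 2iL library from experiment 3 (-0.97, adjusted p = 0.0766) or 4 (-1.13, adjusted p = 0.0929), or the 48 h + 2iL library from experiment 2 (-1.31, adjusted p = 0.0504). It was lost as well by DESeq2 (-1.33, adjusted p = 0.0508) and in a fit of both re-treated groups alone (-1.33, adjusted p = 0.0574).

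The change in 96 h + 2iL from 96 h minus that in 48 h + 2iL from 48 h was tested as an interaction. Both changes mix 2iL with the 24 h that passed, and only the later one has a time-matched group without 2iL. The interaction cannot separate these, so a difference in the effect of 2iL itself was not tested. EdgeR called 0 of 7 genes, with 0.921% of all genes, while 3 had an unadjusted p under 0.05 and DESeq2 called 0. The estimates were 1.11 ± 0.53 for Zeb1, 1.06 ± 0.42 for Ncam1 and 0.73 ± 0.26 for Vim, each with the same sign in 4 of 4 experiments. From 96 h to 120 h without 2iL, these genes moved by 1.23 ± 0.35, 0.80 ± 0.28 and 0.31 ± 0.19. Vim passed with the experiment as a block (0.75, adjusted p = 0.038), and Zeb1 without the 96 h library from experiment 3 (1.83, adjusted p = 0.0432). Epcam fell after both returns, and its 2 changes differed by -0.33 ± 0.56 (adjusted p = 0.894).

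**Figure D4:**
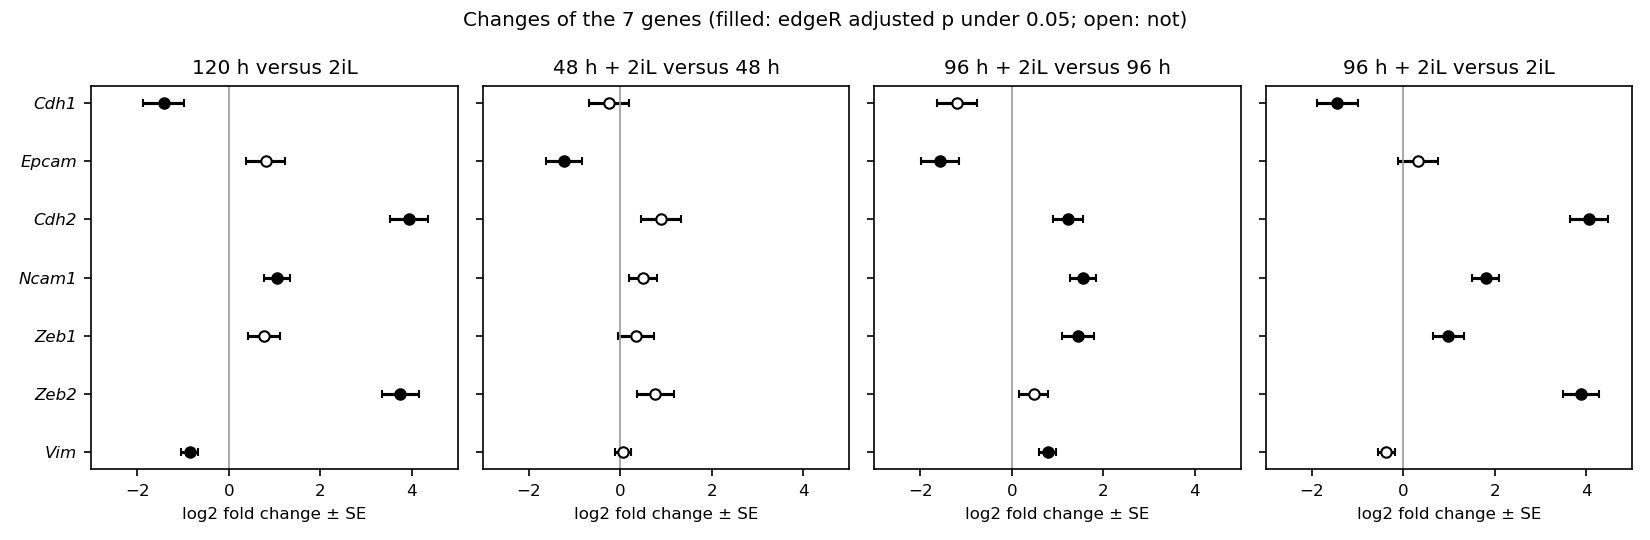
Log2 fold change ± SE of the 7 genes in 4 comparisons, filled where the adjusted p of edgeR was under 0.05. Cdh2 and Zeb2 lie near 4 at 120 h and in 96 h + 2iL against 2iL, and Epcam lies below 0 in both returns of 2iL. Vim lies at -0.85 at 120 h against 2iL, at 0.79 in 96 h + 2iL against 96 h, and at -0.37 in 96 h + 2iL against 2iL.

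In the order of group means, most neighbours overlapped. Cdh1 ran from 1040.2 CPM at 48 h through 2iL, 48 h + 2iL, 96 h and 24 h to 352 CPM at 120 h and 346 CPM in 96 h + 2iL, with a break between 24 h and 120 h where no libraries overlapped. Cdh2 and Zeb2 shared 1 order from the top down to 48 h: 96 h + 2iL, 120 h, 96 h, 48 h + 2iL and 48 h, and no break separated any neighbours. Zeb1 had its highest means in 96 h + 2iL and at 120 h, and the 120 h libraries did not overlap those of 24 h, the next mean down. At 96 h the Zeb1 library from experiment 3, at 44.9 CPM, lay within the range of both top groups. Ncam1 in 96 h + 2iL stood clear of the next group, 120 h.

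Other genes of the switch were taken as lists. Of 15 other cadherins, 8 were below the filter on low counts. Cdh6, Cdh11 and Cdh22 were at or near 0 in 2iL and passed the filter through later groups, so they had to differ, and no share of rises is read for this list. Cdh6, a type II cadherin of neural crest and kidney, was at 25.6 ± 7.9 CPM at 120 h against 0 counts in 2iL, at least 75.2-fold higher when 3 counts over the 2iL group are taken as the limit. Cdh11 was at 23.3 ± 8.7 CPM at 120 h against 1.28 ± 0.50 CPM in 2iL, and Cdh4, the retinal cadherin, at 34.2 ± 4.5 CPM against 4.99 ± 1.6 CPM (SD, n = 4). Cdh3, P-cadherin, did not pass the test (-1.58 ± 0.79, adjusted p = 0.0981).

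Of 13 tested adherens junction partners, 7 were called higher and 1 lower at 120 h against 2iL, where 24.6% of all genes rose and 22.6% fell. Ctnna2, one of the 7, passed the filter through later groups and had to differ, so this share is not read either. Jup, which encodes plakoglobin, a catenin of desmosomes and adherens junctions, fell by 2.73 ± 0.39. Ctnna2, the neural alpha-catenin, was at 6.65 ± 2.2 CPM at 120 h and at 0 counts in 2iL, at least 19.6-fold higher. Ptprf, a receptor phosphatase at junctions, rose by 1.39 ± 0.13. In 96 h + 2iL against 96 h, edgeR called 0 of the 13, where 9.24% of all genes changed, with 2 unadjusted p under 0.05 and 0 calls by DESeq2.

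Of 12 other transcription factors of epithelial-mesenchymal transition, 7 were below the filter, Snai1, Snai2, Snai3, Twist2 and Foxc2 among them, and Snai1 averaged 1.79 CPM at 120 h and 1.38 CPM in 2iL. Tcf4, an E protein, was abundant, at 192 ± 36 CPM at 120 h and 235 ± 33 CPM in 2iL, and did not pass the test there (adjusted p = 0.149). Twist1 was at 7.69 ± 2.9 CPM at 120 h, against 1.65 ± 1.8 CPM in 2iL. It was low in 2iL and passed the filter through other groups, so its call is not read. Tcf3 rose to 151 ± 28 CPM at 120 h, against 92.9 ± 14 CPM in 2iL. Klf8, at 2.6 ± 1.1 CPM at 120 h against 43.6 ± 6.2 CPM in 2iL, fell. It was at 29.3 ± 2.7 CPM in 48 h + 2iL against 9.73 ± 4.5 CPM at 48 h, a rise of 1.60 ± 0.35 (adjusted p = 0.00165).

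Of 10 tested epithelial regulators, 3 were called higher and 3 lower at 120 h against 2iL, beside 24.6% and 22.6% of all genes. Esrp1, called higher, was low in 2iL and passed the filter through other groups, so no share is read. Elf3, an ETS factor of epithelia, was at 1.64 ± 1.1 CPM at 120 h against 32.4 ± 7.6 CPM in 2iL, and Esrp1, a splicing regulator of epithelial isoforms, at 16.2 ± 13 CPM against 2.44 ± 2.2 CPM. Grhl2, a grainyhead factor that drives epithelial genes, averaged 4.20 CPM in 2iL, 16.6 CPM at 24 h, 43.5 CPM at 48 h, 21 CPM at 96 h and 5.73 CPM at 120 h. It fell by 2.73 ± 0.49 in 48 h + 2iL against 48 h (adjusted p = 0.000139) and by 2.73 ± 0.55 in 96 h + 2iL against 96 h (adjusted p = 0.00123).

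In 96 h + 2iL against 96 h, 4 epithelial regulators fell (Rab25, Grhl2, Cldn7 and Esrp1) and Elf3 rose, where 5.23% of all genes fell and 4.02% rose. Rab25, a small GTPase of epithelial recycling, was at 3.74 ± 3.5 CPM in 96 h + 2iL against 32.5 ± 15 CPM at 96 h, and Cldn7, a claudin that binds EpCAM, at 8.45 ± 8.4 CPM against 41.5 ± 23 CPM. Without 2iL, at 120 h against 96 h, the means were 15.2 and 32.5 CPM for Rab25, 5.73 and 21 CPM for Grhl2 and 16.7 and 41.5 CPM for Cldn7, the list's median change was -1.04, and edgeR called 0 of the 10, with 6 unadjusted p under 0.05 and 1 call by DESeq2. Against the time-matched 120 h group, the median was -0.24, no epithelial regulator fell by edgeR's test and Elf3 rose (2.34 ± 0.46, adjusted p = 0.00268), with 2 unadjusted p under 0.05 and 2 calls by DESeq2. A fit of the 96 h + 2iL and 96 h groups alone kept Rab25 and Grhl2 past the threshold. The Elf3 call (1.36 ± 0.41, adjusted p = 0.0323) was lost without the 96 h library from experiment 3 or 4 or the 96 h + 2iL library from experiment 1, 2 or 4 (1.07 to 1.39, adjusted p = 0.0523 to 0.146). The Esrp1 call (-1.76 ± 0.51, adjusted p = 0.0228) was lost without the 96 h library from experiment 1 or 2 or the 96 h + 2iL library from experiment 3 or 4 (-1.37 to -1.62, adjusted p = 0.0702 to 0.0879), and by DESeq2 (-1.80, adjusted p = 0.054).

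Of 17 tested mesenchymal effectors, 6 rose and 2 fell at 120 h against 2iL (median 0.17), beside 24.6% and 22.6% of all genes, and no more is read from these counts. Mmp2, a gelatinase, was at 25 ± 5.4 CPM at 120 h against 4.56 ± 1.1 CPM in 2iL, and Tagln, an actin-binding protein of smooth muscle, at 34.0 ± 19 CPM against 8.01 ± 1.2 CPM. Fn1, fibronectin, fell like Vim, to 60.9 ± 16 CPM at 120 h against 226 ± 55 CPM in 2iL. It rose by 0.70 ± 0.20 when 2iL was returned after 96 h (adjusted p = 0.0192), a call lost without the 96 h library from experiment 2 or the 96 h + 2iL library from experiment 1 or 2 (0.58 to 0.64, adjusted p = 0.0571 to 0.0923) and in a fit of those groups alone (0.69, adjusted p = 0.052). That change also holds 24 h of further culture. Against the time-matched 120 h group edgeR called 0 of the 17, Fn1 among them, where 2.63% of all genes changed. There 3 had an unadjusted p under 0.05 and DESeq2 called 0. At 120 h against 96 h edgeR called 0 of the 17, where 1.14% of all genes changed, with 0 unadjusted p under 0.05. When 2iL was returned after 48 h, Fn1 rose by 0.66 ± 0.19 (adjusted p = 0.0139), lost without the 48 h library from experiment 2 (0.60, adjusted p = 0.0516). Collagen genes of the list did not pass the test, with Col1a1 at 0.17 ± 0.34 (adjusted p = 0.714).

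Of 12 neural adhesion genes, 6 were below the filter. Nfasc and Nrcam were at or near 0 in 2iL and passed it through other groups, so no share of rises is read for this list either. Nfasc, neurofascin, was at 28.4 ± 7.5 CPM at 120 h and at 0 counts in 2iL, at least 83.4-fold higher, and Nrcam, a partner of the same family, was at 21 ± 8.7 CPM against 0.284 ± 0.57 CPM. St8sia2, which adds polysialic acid to NCAM, changed by 0.06 ± 0.69 (adjusted p = 0.952). Nfasc fell in 96 h + 2iL against 96 h (-1.32 ± 0.33, adjusted p = 0.01), and against 120 h its difference was -0.96 ± 0.34 (adjusted p = 0.153).

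Of 12 tested intermediate filament genes, 5 were called higher and 2 lower at 120 h against 2iL, beside 24.6% and 22.6% of all genes. Krt19, one of the 5, was near 0 in 2iL and passed the filter through later groups, so no share is read. Krt18, a keratin of simple epithelia, rose by 3.96 ± 0.62 and Nes, nestin of neural progenitors, by 2.30 ± 0.28, opposite to Vim. Of 11 tested genes of ZEB co-repressors and the TGF-beta arm, 5 rose and 2 fell at 120 h against 2iL, beside 24.6% and 22.6% of all genes. Ctbp1, a co-repressor that ZEB proteins recruit, rose by 1.22 ± 0.20, and Smad7, an inhibitor of TGF-beta signalling, fell by 2.79 ± 0.42. Ctbp2, the other co-repressor, fell in 96 h + 2iL against 96 h (-1.0 ± 0.19, adjusted p = 0.000608) and in 48 h + 2iL against 48 h (-0.64 ± 0.19, adjusted p = 0.0166). Against 120 h the difference of Ctbp2 in 96 h + 2iL was -0.34 ± 0.19 (adjusted p = 0.491), and at 120 h against 96 h it was -0.66 ± 0.19 (adjusted p = 0.0648). The call after 48 h was lost without the 48 h + 2iL library from experiment 1 (-0.54, adjusted p = 0.0719) or 2 (-0.58, adjusted p = 0.059). Of the 2 falls, that of the ligand gene Tgfb1 (-1.72 ± 0.65, adjusted p = 0.028) was lost without the 120 h library from experiment 3 or 4 or the 2iL library from experiment 1, 2 or 4 (-1.49 to -1.67, adjusted p = 0.0528 to 0.0846).

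**Figure D5:**
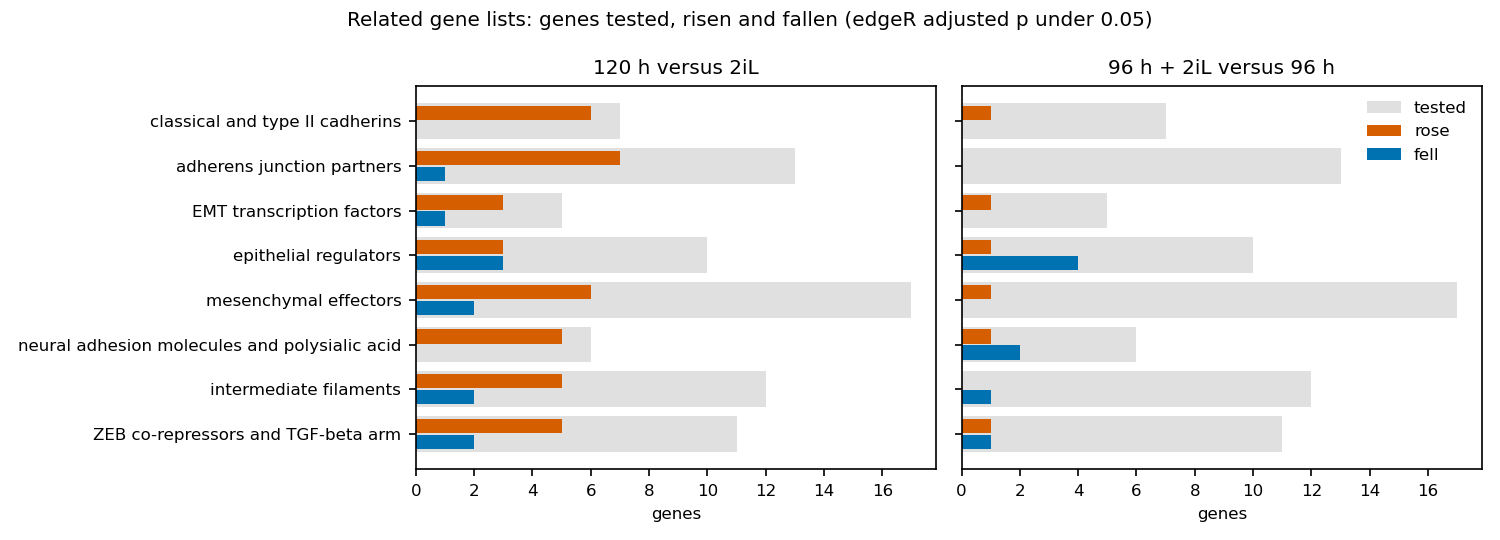
Genes of 8 related lists that were tested (grey), rose (orange) or fell (blue) at 120 h against 2iL and in 96 h + 2iL against 96 h. The grey bars hold the genes past the filter, 7 of 15 other cadherins and 6 of 12 neural adhesion genes among them, some of which passed it only through groups where they are high. In 96 h + 2iL against 96 h, 4 of 10 epithelial regulators fell.

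Markers of other cell types that carry these genes were read beside them. Neural crest markers summed to 15.2 to 23.5 CPM at 120 h and 16.5 to 24.5 CPM in 2iL, with Sox10 at 0 counts in both. Within these overlapping sums, Ets1 (3.13 ± 0.69, adjusted p = 0.000364) and Pax3 (4.16 ± 0.96, adjusted p = 0.000555) were called higher at 120 h and Tfap2a (-3.54 ± 0.54, adjusted p = 2.06e-06) fell. Ets1 and Pax3 were low in 2iL and passed the filter through other groups, so their calls are not read. Mesoderm markers summed to 24.2 to 89.8 CPM at 120 h and 13 to 30.1 CPM in 2iL, with Msgn1 at 0 counts in both, and Eomes rose (1.86 ± 0.55, adjusted p = 0.0062). In 48 h + 2iL the mesoderm sum was 58.0 to 128 CPM, against 0.613 to 3.46 CPM at 48 h, beside the values of Cdh2 and Zeb2 there. Of the 6 mesoderm markers only 2 passed the filter. EdgeR called 1 of these in 48 h + 2iL against 48 h, where 14.9% of all genes changed, and Msgn1 was at 0 counts in 48 h + 2iL. The called marker was low at 48 h and passed the filter through other groups, so its call is not read. In experiments 1 to 4 the mesoderm sum was 92.1, 122.9, 5.35 and 16.8 CPM in 96 h + 2iL, against 8.29 to 13.8 CPM at 96 h, beside the 5 changed genes of that comparison. Mesp1 and Msgn1 were at 0 counts in 96 h + 2iL. The neural crest sum was 17.6 to 40.9 CPM in 96 h + 2iL and 8.49 to 18.3 CPM at 96 h. Pax3 was called higher in that comparison (3.24 ± 0.74, adjusted p = 0.00397), and so was the mesoderm marker T. Pax3 was low at 96 h as well, so its call there is not read. Whether these sums stand for cells of those types, and their part in the levels of the 7 genes, was not tested.

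The genes closest to each of the 7 in pattern were found by the root-mean-square difference of the 6 log2 changes against 2iL, over 7670 genes with a mean of at least 10 CPM. For Cdh2 these were Nrep (0.36), Igdcc3 (0.39) and Ccnd2 (0.44), and for Zeb2 they were Rbmx (0.28), Ano10 (0.30) and Grb10 (0.30). For Cdh1 they were Palm3 (0.24), Crip1 (0.24) and Etl4 (0.24), and for Epcam Sssca1 (0.28), Runx1t1 (0.28) and Skil (0.28). For Zeb1 they were Sall3 (0.26), Ranbp6 (0.30) and Mast4 (0.32), for Ncam1 Plagl2 (0.34), AU040320 (0.34) and Mkrn3 (0.35), and for Vim Necap2 (0.15), Rapgef6 (0.16) and Med15 (0.16). All 6 changes share the 2iL libraries, so these are descriptions of pattern.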

How the data were processed

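RNA of 28 libraries was sequenced from its 3′ ends, per the labels' protocols. The submitters' processing notes name bcl2fastq, STAR 2.6.0a, HTSeq and the mm10 build, with no role given. The deposited files hold raw counts per gene for 31053 genes. The table the authors deposited for the series holds CPM for 30386 genes, which equalled CPM computed from the counts within 1e-06 in all 28 columns. Alignments at several places made up 52.3% to 60.1% of listed reads and were not counted.

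Genes passing filterByExpr (at least 10 counts, 15 in total) were scaled by TMM and fitted with edgeR 4.0.16 (R 4.3.3, quasi-likelihood, 1 mean per group, 28 libraries). The 14 comparisons were adjusted by Benjamini-Hochberg over 11080 genes. Standard errors are the absolute log2 change over the square root of F. Replicates differed by more than sampling noise (chi-square per gene 2.48 to 11.3 over 42 pairs), and floors cover counting error only.

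The titles number the experiments, so the number was taken to pair libraries. Deviations from group means had a median correlation of 0.133 for 84 pairs of the same number and -0.061 for 252 pairs of different numbers. All 7 genes were tested in each comparison, and not every value is printed. Of each list, up to 4 called genes with the largest change could be named, plus genes at or near 0 or not called. The 7 genes and the lists were chosen with earlier results of these data known. Sequences are from RefSeq (GRCm38.p6), and gene positions from GENCODE M21.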

Additional observations from a re-analysis of the deposited data

Results flagged for a closer look

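Of 49 sets of 4 libraries (7 genes in 7 groups), 1 held a value far from the rest. Zeb1 at 120 h was at 78.35 CPM in experiment 3, against 36.3 to 41.5 CPM in the other 3 experiments, a gap large for the range of the group by Dixon's test. About 1 in 20 such sets is picked out by chance.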

How the results depend on the processing

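The 7 genes were recounted under 7 kinds of alternative: library totals in place of TMM, no filter on low counts, the experiment number as a replicate block, a fit of only the groups compared, DESeq2, each library left out in turn, and experiment 3 left out of every group, the last chosen after seeing the data. The cause of each shift below was not tested, and some smaller shifts in these counts are not listed.

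Without the filter the number of genes called became 2 in place of 1 at 24 h against 2iL, 2 in place of 1 at 48 h against 2iL, 4 in place of 0 at 48 h against 24 h, 5 in place of 3 at 96 h against 48 h and 5 in place of 0 at 120 h against 96 h. It became 2 in place of 1 in 48 h + 2iL against 48 h, 2 in place of 0 in 96 h + 2iL against 120 h and 3 in place of 0 for the difference of the returns. At 120 h against 2iL it became 7 in place of 5. With the replicate block, which rests on the paired experiment numbers, it became 2 at 48 h against 2iL, 1 at 48 h against 24 h, 5 at 120 h against 96 h, 2 in 96 h + 2iL against 120 h and 1 for the difference of the returns. In 96 h + 2iL against 96 h it became 7 in place of 5 with the block. The block changed 15 calls, all of them gained and given beside the results, and no other call.

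In fits of only the groups compared the count became 2 at 24 h against 2iL, 2 at 48 h against 2iL, 3 at 48 h against 24 h, 2 in place of 5 in 96 h + 2iL against 96 h and 1 in 96 h + 2iL against 120 h. With DESeq2 it became 0 at 24 h against 2iL, 1 at 48 h against 24 h, 1 at 120 h against 96 h and 0 in 48 h + 2iL against 48 h. By DESeq2 and in fits of only the groups compared it was 4 in place of 5 in 96 h + 2iL against 48 h + 2iL. Without experiment 3 it became 1 at 48 h against 24 h (Epcam, 0.86, adjusted p = 0.0401) and 5 at 120 h against 96 h.

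Leaving out 1 library gave 0 to 1 genes at 24 h against 2iL, 0 to 1 at 48 h against 24 h, 0 to 4 at 120 h against 96 h, 0 to 1 in 48 h + 2iL against 48 h, 3 to 6 in 96 h + 2iL against 96 h, 0 to 2 in 48 h + 2iL against 2iL and 0 to 1 for the difference of the returns.

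The direction of 16 uncalled changes turned under some setting. With 1 library left out, at 24 h against 2iL Zeb1 ran from -0.040 to 0.16 and Vim from -0.076 to 0.22, with -0.013 for Vim by library totals, and at 96 h against 2iL Ncam1 ran from -0.034 to 0.45. Zeb2 at 48 h against 24 h ran from -0.035 to 0.41, and Zeb1 at 96 h against 48 h from -0.33 to 0.64. In 48 h + 2iL, Vim ran from -0.042 to 0.20 against 48 h and from -0.30 to 0.0094 against 2iL, and Ncam1 from -0.017 to 0.16 against 2iL. In 96 h + 2iL against 120 h, Cdh1 ran from -0.44 to 0.35, Cdh2 from -0.11 to 0.37, Zeb1 from -0.23 to 0.55 and Zeb2 from -0.0063 to 0.31, and against 2iL Epcam ran from -0.14 to 0.69. For the difference of the returns Epcam ran from -0.80 to 0.025 and Zeb2 from -0.56 to 0.16. Without experiment 3, Cdh1 at 96 h against 2iL was 0.0080, Zeb1 at 96 h against 48 h was -0.41 and Zeb2 for the difference of the returns was 0.13. With 2 CPM in place of 0.5 CPM added, the log2 ratio of Cdh2 to Cdh1 in 2iL was -7.30.

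Depth limits the low genes most: Cdh2 and Zeb2 had few counts in 2iL, so their folds against 2iL rest on small numbers.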
